A study of Rattus norvegicus with 16 samples.

Results

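Adipoq and C1qtnf2 are 2 of the 32552 genes in the deposited counts, chosen by name as relatives within the adiponectin family, with results of the comparison between implants already known. Adipoq (ENSRNOG00000001821) encodes adiponectin, and C1qtnf2 (ENSRNOG00000003870, also called CTRP2) encodes a secreted protein of the same build. In the coordinates of the count files Adipoq lies on chromosome 11, 81330293 to 81344488, on the minus strand, in 6 exon intervals with a summed exon length of 2039 bases. C1qtnf2 lies on chromosome 10, 29067102 to 29084035, on the plus strand, in 4 exon intervals with a summed exon length of 1216 bases. No other annotated gene overlapped either of them. The genome build behind these coordinates is not settled. The paper names a rat assembly and the labels name a mouse one, while chromosome 1 in the count files runs to 282724300, past the end of both.

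Adiponectin is a hormone made almost entirely by fat cells, and it is among the most abundant proteins that fat releases into blood. It carries a collagen-like stalk and a globular head of the C1q/TNF fold, assembles into trimers and larger complexes, and acts through the receptors Adipor1 and Adipor2 and through T-cadherin. The C1q/TNF-related proteins (CTRPs, the C1qtnf genes) share this architecture, are made by many cell types of connective tissue and fat, and have mostly been studied in energy metabolism.

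The tissue was the abdominal wall of Sprague Dawley rats, labelled female and aged 12 weeks, beneath an implant, sampled on day 3 or day 14 after implantation, with 4 libraries in each of 4 groups. Adhesive implants were a polyurethane mock device with an adhesive layer of poly(vinyl alcohol) and poly(acrylic acid) NHS ester, pressed onto the tissue without sutures. Non-adhesive implants were the same device after the layer had swollen in PBS and lost its bonding, and they were stitched at the corners, so that sutures go with every comparison between implants. The series held no library from tissue without an implant, and it is not stated whether the 4 libraries of a group came from separate rats, so that p values cover only the scatter among these libraries.

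The deposited values were whole-number read counts. Library totals were 18616084 to 22374546 counts with adhesive and 19921066 to 24858976 with non-adhesive implants on day 3. Day 14 totals were 13852126 to 15994448 with adhesive and 14710269 to 16801635 with non-adhesive implants. Each library of day 14 was shallower than each library of day 3, and day and batch cannot be told apart. The skeletal muscle marker Mb (myoglobin) averaged 7540 ± 1180 CPM (counts scaled to a common library size) with adhesive and 3550 ± 1920 CPM with non-adhesive implants on day 14 (SD, n = 4 each), so the libraries held muscle of the wall. On day 3 Mb was lower, at 933 ± 200 CPM with adhesive and 1320 ± 1090 CPM with non-adhesive implants. One library stood apart from its group. In non-adhesive replicate 4 of day 14 the summed level of 17 fibroblast genes was 3310 CPM, against 20900 to 23100 CPM in the other 3 libraries of that group. Its 11 skeletal muscle fibre genes summed to 24900 CPM, against 9790 to 10600 CPM in those 3 libraries. For the named genes, calls between implants on day 14 that change without this library are given both ways.

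Levels are given as CPM scaled by TMM, a normalization that sets the typical gene to the same level in all libraries. Adipoq had 181, 353, 510 and 2103 counts in adhesive replicates 1 to 4 on day 3, which is 9.77, 15.2, 22.8 and 70.0 CPM. The non-adhesive replicates of that day had 147, 5.16, 44.9 and 8.12 CPM of Adipoq. Both the highest and the lowest library of day 3 came from non-adhesive implants, and the adhesive libraries lay between them.

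On day 14 the groups did not overlap in Adipoq. The adhesive replicates had 1.84, 19.8, 7.67 and 13.2 CPM of Adipoq, from 17, 262, 88 and 169 counts. The non-adhesive replicates had 47.0, 32.3, 313 and 97.0 CPM of Adipoq, from 812, 474, 5112 and 934 counts. The adhesive library with the most Adipoq, replicate 2, lay below the non-adhesive library with the least, also a replicate 2.

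C1qtnf2 was a gene of low level. Its counts ran between 28 and 197 over the 16 libraries, against 17 to 5133 for Adipoq. On day 3 it had 2.92, 1.63, 1.88 and 2.30 CPM in adhesive replicates 1 to 4, against 3.6, 4.44, 4.44 and 5.34 CPM in the non-adhesive replicates. On day 3 every adhesive library was thus below every non-adhesive one for C1qtnf2. On day 14 it had 3.03, 8.63, 6.62 and 4.00 CPM in adhesive replicates 1 to 4, against 10.0, 12.8, 12.1 and 6.23 CPM in the non-adhesive replicates. Here the groups overlapped through a single non-adhesive library, replicate 4, which lay inside the adhesive range, and the other 3 non-adhesive libraries were above all adhesive ones.

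**Figure D1:**
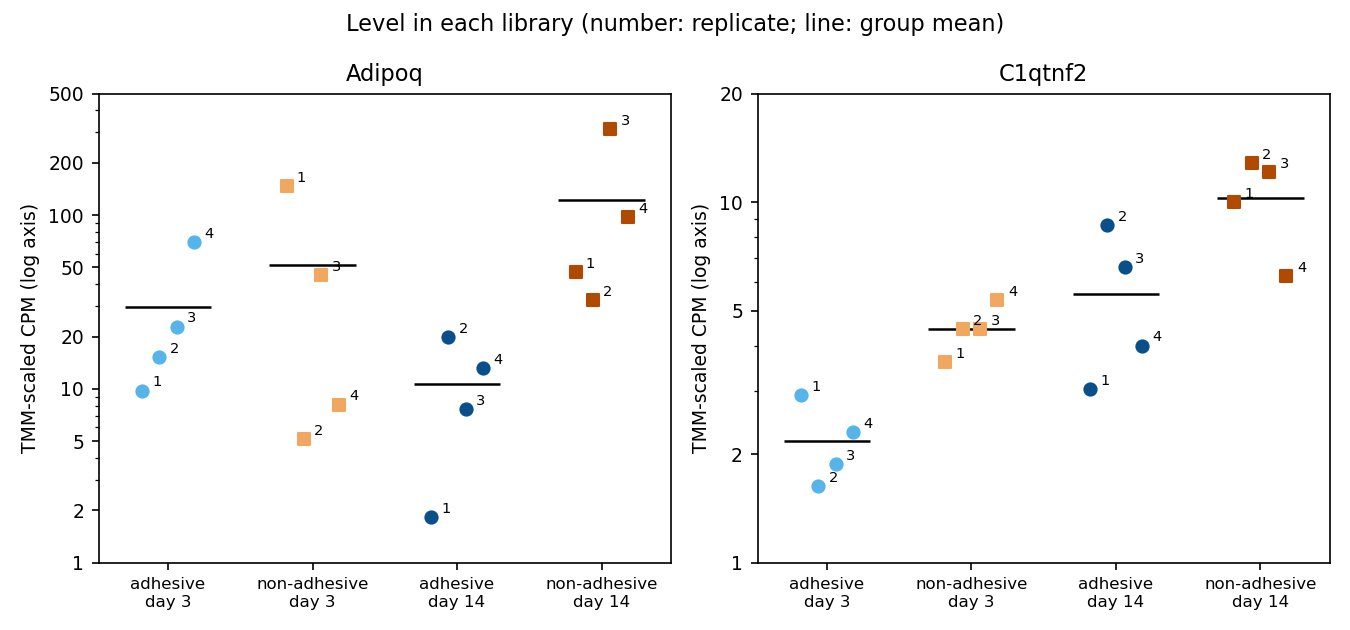
TMM-scaled CPM of Adipoq (left) and C1qtnf2 (right) in each of the 16 libraries, on logarithmic vertical axes, with the replicate number beside each point and a line at the mean of each group of 4. Adipoq spans 1.84 to 313 CPM and only its day 14 groups stand apart, while C1qtnf2 spans 1.63 to 12.8 CPM and its day 3 groups stand apart.

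The 2 genes differed most in how far libraries of the same group lay from each other. Group means of Adipoq, in rising order, were 10.6 ± 7.7 CPM with adhesive implants on day 14, 29.4 ± 27.6 CPM with adhesive implants on day 3, 51.2 ± 66.1 CPM with non-adhesive implants on day 3 and 122 ± 130 CPM with non-adhesive implants on day 14 (SD, n = 4 each). Neighbours in this order all overlapped, and of the groups that share a day or an implant only the pair of day 14 did not. The coefficient of variation was 72.3 to 129%, and the highest library held 7.16 to 28.4 times the level of the lowest within a group. In 3 of the 4 groups 1 library carried most of the Adipoq signal, with 59.4% of the summed CPM in adhesive replicate 4 on day 3, 71.6% in non-adhesive replicate 1 on day 3 and 64.0% in non-adhesive replicate 3 on day 14. In the adhesive group of day 14 the highest library held 46.6%.

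For C1qtnf2 the order of the groups was another one. In rising order its means were 2.18 ± 0.561 CPM with adhesive and 4.46 ± 0.713 CPM with non-adhesive implants on day 3, and 5.57 ± 2.55 CPM with adhesive and 10.3 ± 2.94 CPM with non-adhesive implants on day 14 (SD, n = 4 each). Of the neighbours in this order the first pair did not overlap, whereas the day 3 non-adhesive and day 14 adhesive libraries did, as did both groups of day 14. Coefficients of variation were 16 to 45.7%, and the highest library of a group held 1.49 to 2.85 times the level of its lowest.

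On the log2 CPM scale the SD within groups was 1.63 for Adipoq and 0.46 for C1qtnf2, where the median gene had 0.38. Of the 14601 genes that passed the filter on low counts over all 16 libraries, 43 had a larger SD within groups than Adipoq. C1qtnf2 sat near the middle, with 60.1% of genes below it.

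Levels of different genes can be compared only per length. Scaled by exon length, the median of Adipoq was 9.31 CPM per kilobase with adhesive and 13 with non-adhesive implants on day 3, and 5.13 with adhesive and 35.3 with non-adhesive implants on day 14. For C1qtnf2 the medians were 1.72 and 3.65 CPM per kilobase with adhesive and non-adhesive implants on day 3, and 4.37 and 9.09 on day 14. Adipoq was the more abundant transcript in 12 of 16 libraries. The 4 exceptions, with more C1qtnf2 per length, were 2 adhesive libraries of day 14 and 2 non-adhesive libraries of day 3.

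The comparison between implants asks what a bonded interface does to the tissue beneath it. It had a part in the choice of both genes, so its values for them are a description and carry no test. On day 3 the log2 fold change of Adipoq, adhesive over non-adhesive, was -0.80 (SE 1.03), smaller than its own error. The sign was not stable, since the value was 0.63 without non-adhesive replicate 1 and was also positive with the replicate number as a block. C1qtnf2 had a log2 fold change of -1.03 (SE 0.25) on day 3, a level 2.04-fold lower with adhesive implants, and leaving out any single library gave -1.18 to -0.91. Of all 14223 genes tested on that day, 2.67% had every adhesive library below every non-adhesive one.

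On day 14 Adipoq had a log2 fold change of -3.51 (SE 0.89), which is 11.4-fold lower with adhesive implants. Without non-adhesive replicate 3, its richest library, the value was -2.44, and leaving out other libraries gave down to -3.99. Without the library that stood apart, non-adhesive replicate 4, it was -3.6. Of the 13557 genes tested on day 14, 4.11% had every adhesive library below every non-adhesive one, and nothing is read from the place of Adipoq among them. C1qtnf2 had a log2 fold change of -0.88 (SE 0.36) on day 14, and -1.06 without non-adhesive replicate 4. In these bulk samples, fewer cells of a type and less RNA per cell cannot be told apart.

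The implant effect on day 14 minus that on day 3 was -2.71 (SE 1.43) on the log2 scale for Adipoq, and -4.11 to -1.65 when single libraries were left out. For C1qtnf2 it was 0.15 (SE 0.44), and -0.14 to 0.35 when single libraries were left out, a value smaller than its error. No test is given for either value, since both contain the comparisons that the choice of genes used.

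**Figure D2:**
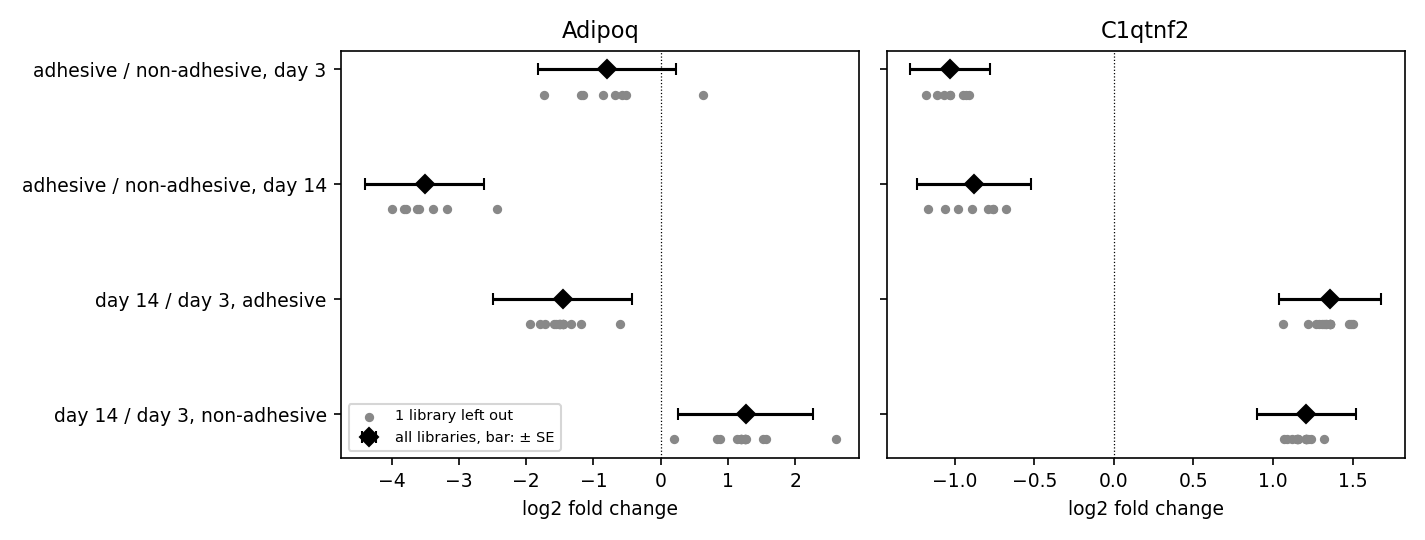
Log2 fold changes of Adipoq (left) and C1qtnf2 (right) in 4 comparisons, with diamonds for the fit of all libraries, bars for ± 1 SE and grey points for fits that left out 1 library each. The horizontal scales differ between the panels, and for Adipoq 1 grey point of the day 3 comparison lies at 0.63, on the other side of 0 from the rest.

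The comparison between days, within each implant, asks how the site changed as it healed. Both genes were tested in it with edgeR's quasi-likelihood test on all 16 libraries, with Benjamini-Hochberg adjustment over 14601 genes, and a call needed an adjusted p at or under 0.05 together with a log2 fold change of 1 or more, up or down. The libraries are those that also enter the comparison of implants. C1qtnf2 was higher on day 14 with both implants. With adhesive implants it averaged 5.57 CPM on day 14 and 2.18 CPM on day 3, a log2 fold change of 1.36 (SE 0.32, edgeR adjusted p = 0.015). With non-adhesive implants it averaged 10.3 CPM on day 14 and 4.46 CPM on day 3, a log2 fold change of 1.21 (SE 0.31, edgeR adjusted p = 0.018). Without non-adhesive replicate 4 of day 14 the non-adhesive value was 1.32 (edgeR adjusted p = 0.008). Each library of day 14 was above each library of day 3 of the same implant. Among all genes, 4.39% were called higher on day 14 with adhesive and 5.32% with non-adhesive implants, and 12.6% and 9.14% had every day 14 library above every day 3 library. The muscle marker Mb rose between days by a log2 fold change of 3.02 with adhesive (edgeR adjusted p = 0.0037) and 1.43 with non-adhesive implants (edgeR adjusted p = 0.058). Of the 11 skeletal muscle fibre genes, 5 and 4 were called higher on day 14. The part of muscle content in any value between days was not tested.

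These calls of C1qtnf2 depended on the scaling. TMM sets the median gene near 0 between days, and by library totals alone, an alternative chosen after seeing the data, the median gene was lower on day 14 by a further 0.57 on the log2 scale with adhesive and 0.43 with non-adhesive implants. By library totals the log2 fold change of C1qtnf2 was 0.86 with adhesive implants (edgeR adjusted p = 0.096) and 0.84 with non-adhesive implants (edgeR adjusted p = 0.12), neither of them called. The days then overlapped, with 2.02 to 7.91 CPM on day 14 and 2.04 to 3.08 CPM on day 3 for adhesive implants, and 3.85 to 12.7 CPM on day 14 and 4.67 to 6.46 CPM on day 3 for non-adhesive implants. The adhesive call was also lost without adhesive replicate 2 of day 3 (1.22, edgeR adjusted p = 0.06). The non-adhesive call was lost without non-adhesive replicate 2 of day 14 (1.09, edgeR adjusted p = 0.052), replicate 1 of day 3 (1.07, 0.055) or replicate 3 of day 3 (1.16, 0.053).

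Adipoq passed the threshold with neither implant. With adhesive implants it averaged 10.6 CPM on day 14 and 29.4 CPM on day 3, a log2 fold change of -1.46 (SE 1.03, edgeR adjusted p = 0.34). With non-adhesive implants it averaged 122 CPM on day 14 and 51.2 CPM on day 3, a log2 fold change of 1.26 (SE 1.00, edgeR adjusted p = 0.41). The days overlapped in both. The non-adhesive value moved between 0.19, without replicate 3 of day 14, and 2.60, without replicate 1 of day 3, which are the 2 libraries that carried most of the Adipoq signal of their groups.

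Across the 16 libraries the 2 relatives moved largely apart from each other. The Pearson correlation of their log2 CPM was 0.31 and Spearman's rho 0.24, and with each value centred on its group mean the correlation was 0.09. It was 0.10 without the 2 libraries farthest from the median of C1qtnf2. Among the 13149 genes with a mean of at least 1 CPM, C1qtnf2 held rank 2662 in likeness to Adipoq, and Adipoq rank 3839 in likeness to C1qtnf2. These correlations, and those that follow, describe 16 libraries that share their depth and scaling between genes, and they carry no p.

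The named genes most like Adipoq were S100b, Cdo1, Retn, Tshr and Chrdl1, with correlations of 0.95, 0.91, 0.91, 0.82 and 0.81. S100b encodes a calcium-binding protein of Schwann cells and fat cells, Cdo1 cysteine dioxygenase, Retn the rodent fat-cell hormone resistin, Tshr the thyrotropin receptor and Chrdl1 a BMP antagonist. With values centred on the group means the correlations were 0.92, 0.87, 0.91, 0.76 and 0.74. Without the 2 libraries farthest from the median of each gene they were 0.90, 0.89, 0.87, 0.67 and 0.62. Only 1908 of the 13149 genes have a symbol here, and 17 genes without one ranked ahead of Chrdl1.

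Resistin shows the likeness library by library. Retn had 0.756, 3.83, 2.59 and 10.1 CPM in adhesive replicates 1 to 4 on day 3, against 14.5, 0.573, 7.57 and 1.18 CPM in the non-adhesive ones. As with Adipoq, non-adhesive replicate 1 was the highest and non-adhesive replicate 2 the lowest of that day. On day 14 Retn had 0, 3.94, 0.697 and 1.33 CPM in adhesive replicates 1 to 4, against 3.53, 3.14, 7.48 and 7.79 CPM in the non-adhesive ones. The 0 stands for 0 counts among 13852126, which allows up to 0.324 CPM, and that library also had the least Adipoq of all 16. Retn averaged 1.49 CPM with adhesive and 5.48 CPM with non-adhesive implants on day 14 (log2 fold change -1.82, SE 0.82, edgeR adjusted p = 0.33), and -1.61 without non-adhesive replicate 4 (edgeR adjusted p = 0.17). For S100b the means of day 14 were 3.76 CPM with adhesive and 23.0 CPM with non-adhesive implants (log2 fold change -2.58, SE 0.68, edgeR adjusted p = 0.13), with no overlap between the groups. S100b was called by DESeq2 (adjusted p = 0.0047) and by edgeR without non-adhesive replicate 4 (-2.60, adjusted p = 0.036), as was Cdo1 (DESeq2 adjusted p = 0.0044, edgeR without that library -1.58, adjusted p = 0.033). Over all genes DESeq2 called 3.5% on day 14. Retn, S100b and Cdo1 were picked by likeness to Adipoq in these same libraries. Their values between implants are therefore not independent of those of Adipoq and give no separate test.

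The genes most like C1qtnf2 were others, Dpt, Itgbl1, Galnt16, Ccdc80 and Gulp1, with correlations of 0.96, 0.90, 0.90, 0.89 and 0.89. Dpt encodes dermatopontin and Ccdc80 a further matrix protein, both products of fibroblasts, Itgbl1 an integrin-beta-like secreted protein, Galnt16 an enzyme of O-glycosylation and Gulp1 an adaptor for engulfment. Centred on the group means the correlations were 0.81, 0.82, 0.77, 0.83 and 0.68, and 34 genes without a symbol ranked ahead of Gulp1. Dpt ranked first of all 13149 genes. It had 157, 492, 264 and 193 CPM in adhesive replicates 1 to 4 on day 14, against 689, 1250, 1320 and 336 CPM in the non-adhesive ones. The adhesive library with the most C1qtnf2 on day 14 was also the one with the most Dpt, and non-adhesive replicate 4 was the lowest of its group for both. Between implants on day 14 Dpt had a log2 fold change of -1.70 (edgeR adjusted p = 0.17), was called by DESeq2 (adjusted p = 0.016), and was called by edgeR without that library (-1.99, adjusted p = 0.018). Dpt was picked by likeness to C1qtnf2 in these same libraries, and it is among the fibroblast genes that set that library apart. Its calls are therefore no separate test. On day 3 Dpt had 70.7, 68.9, 56.8 and 140 CPM in the adhesive and 154, 206, 188 and 198 CPM in the non-adhesive libraries, without overlap, as for C1qtnf2.

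**Figure D3:**
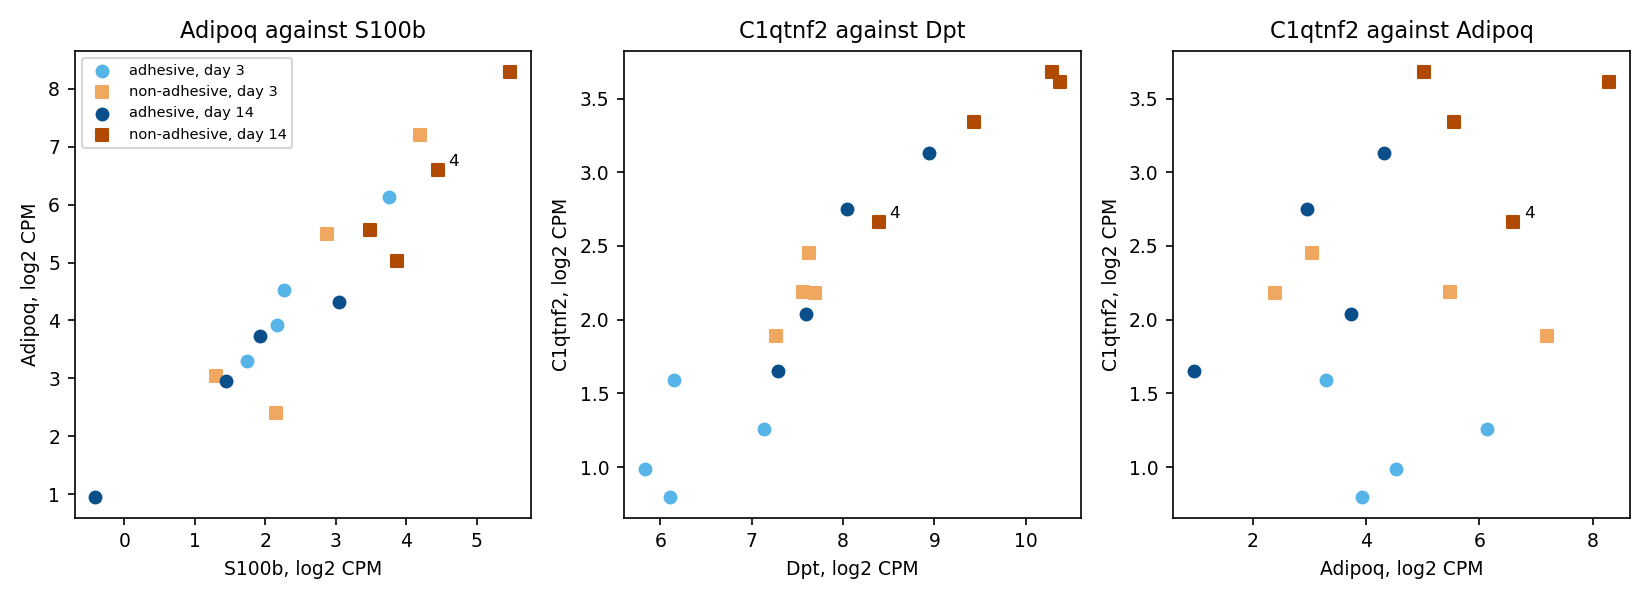
Log2 CPM (prior count 2) of Adipoq against S100b (left), C1qtnf2 against Dpt (middle) and C1qtnf2 against Adipoq (right), with 1 point for each of 16 libraries and the number 4 beside non-adhesive replicate 4 of day 14. The points of the left and middle panels lie along a line (Pearson 0.95 and 0.96), and those of the right panel are scattered (0.31).

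Markers of cell types moved with the 2 genes in different ways. The mean log2 CPM of the 12 other adipocyte genes with a symbol correlated with Adipoq at 0.82 and with C1qtnf2 at 0.43. Single genes of that list spread widely around the mean, from Retn (0.91) and Tshr (0.82) through Abhd5 (0.12) and Tmem120a (0.03) to Lpin1 (-0.40) and Acacb (-0.41). Of the 11 with a mean of at least 1 CPM, 7 correlated positively and 4 negatively with Adipoq, with a median of 0.12. For 17 fibroblast genes the correlations were 0.53 with Adipoq and 0.73 with C1qtnf2. For 4 Schwann cell genes, S100b among them, they were 0.69 with Adipoq and 0.47 with C1qtnf2. All 4 had negative log2 fold changes between implants on day 14 (median -1.04), edgeR called none, and DESeq2 called S100b. Their summed level on day 14 was 49.9 to 146 CPM with adhesive and 87.6 to 239 CPM with non-adhesive implants, none was at 0, and their part in the values of Adipoq was not tested. For 11 skeletal muscle fibre genes the correlation with Adipoq was -0.41, and -0.67 with values centred on the group means. All 11 had positive log2 fold changes between implants on day 14 (median 0.52), and edgeR called none. DESeq2 called 2 of them, Mb among them (adjusted p = 0.047). Without non-adhesive replicate 4 edgeR called Mb (1.49, adjusted p = 0.011). That library was set apart in part by its high sum of these 11 genes, so this call is no separate result. The part of muscle content in the values of Adipoq was not tested. For 7 endothelium and 13 leukocyte genes the correlations with Adipoq were 0.50 and 0.24, and with C1qtnf2 0.09 and 0.01. Centring on the group means changed several of these values. The centred correlations with Adipoq were 0.86 for adipocyte, 0.39 for fibroblast, 0.48 for Schwann cell, 0.33 for endothelium and 0.29 for leukocyte genes. With C1qtnf2 they were 0.21, 0.73, 0.27, 0.18 and 0.57 in that order, and -0.14 for muscle genes. The fibroblast list holds Dpt and Ccdc80, and the adipocyte list holds Retn and Tshr, so these values and the likeness of single genes are not independent.

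The summed level of the 17 fibroblast genes was 4010 to 11700 CPM with adhesive and 6420 to 16800 CPM with non-adhesive implants on day 3, and 2730 to 14500 CPM with adhesive and 3310 to 23100 CPM with non-adhesive implants on day 14. No fibroblast gene was at 0 in any library. In the comparison of implants all 17 had negative log2 fold changes on day 3 (median -0.88, against -0.01 over all genes) and 16 of 17 on day 14 (median -1.11, against -0.04 over all genes), and edgeR called none. On day 14 DESeq2 called 1 of them (Dpt), and edgeR called 7 without non-adhesive replicate 4, with a median of -1.43. Without that library edgeR called 1151 genes in all, against 36 with it. The library was set apart by the low sum of these same 17 genes. Leaving it out therefore lowers their fold changes by construction, and the 7 calls are no separate result. The part of fibroblast content in the values of C1qtnf2 was not tested.

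The summed level of the 12 adipocyte genes other than Adipoq was 405 to 668 CPM with adhesive and 432 to 604 CPM with non-adhesive implants on day 3, and 451 to 804 CPM with adhesive and 369 to 700 CPM with non-adhesive implants on day 14. Most of this sum is Acacb, an acetyl-CoA carboxylase also used by muscle, and Srebf1, a regulator of lipid synthesis, so the sum does not follow Adipoq. Retn was at 0 in 1 library and no other adipocyte gene was at 0. The defining markers Lep, Plin1, Fabp4 and Cidec have no symbol here and were not analysed here. The part of fat content in the values of Adipoq was not tested.

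Of the C1q/TNF family, 30 genes were listed, 4 have a symbol here, and the other two besides Adipoq and C1qtnf2 are C1qtnf1 and Cbln1. C1qtnf1, the gene of the secreted protein CTRP1, correlated with Adipoq at 0.69 and with C1qtnf2 at 0.35. It had 6.70, 30.1, 8.63 and 8.70 CPM in adhesive replicates 1 to 4 on day 14, against 42.7, 45.3, 45.5 and 11.1 CPM in the non-adhesive ones. Adhesive replicate 2 had the most C1qtnf1 of its group, as it did of Adipoq and C1qtnf2. Non-adhesive replicate 4 had the least C1qtnf1 of its group, as it did of C1qtnf2, while its Adipoq level of 97.0 CPM was exceeded only by replicate 3. The log2 fold change of C1qtnf1, adhesive over non-adhesive, was -0.26 on day 3 (SE 0.36, edgeR adjusted p = 0.89) and -1.41 on day 14 (SE 0.59, edgeR adjusted p = 0.29). Without non-adhesive replicate 4 the day 14 value was -1.71 and C1qtnf1 was called (SE 0.48, edgeR adjusted p = 0.04).

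Among the genes of this family with a symbol here, only Cbln1 and C1qtnf2 were called between days. Cbln1 encodes cerebellin, known as a synapse organizer. With non-adhesive implants it averaged 1.83 CPM on day 14 and 8.68 CPM on day 3, a log2 fold change of -2.24 (SE 0.69, edgeR adjusted p = 0.038), opposite in sign to that of C1qtnf2, where 3.75% of all genes were called lower. The call was lost without any 1 of the 4 non-adhesive libraries of day 14 (edgeR adjusted p 0.053 to 0.095) or without non-adhesive replicate 3 of day 3 (-1.48, edgeR adjusted p = 0.15), with limma-voom (adjusted p = 0.063) and with the replicate number as a block (edgeR adjusted p = 0.097). With adhesive implants the means were 0.822 CPM on day 14 and 3.13 CPM on day 3 (log2 fold change -1.91, SE 0.74, edgeR adjusted p = 0.09).

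On the receptor side, Adipor1 was the only adiponectin receptor with a symbol here. It had 172 to 302 CPM over all 16 libraries, and in each group its means of 199 to 232 CPM varied by 12.8 to 23.2%, far less than those of its ligand. The log2 fold change, adhesive over non-adhesive, was -0.04 on day 3 (SE 0.19, edgeR adjusted p = 0.97) and 0.22 on day 14 (SE 0.19, edgeR adjusted p = 0.62). With adhesive implants its direction between days hung on the scaling. There the log2 fold change was 0.05 by TMM, while by library totals all day 14 libraries (172 to 195 CPM) were below all day 3 libraries (242 to 273 CPM). With non-adhesive implants Adipor1 was lower on day 14 on both scalings (-0.22 by TMM, edgeR adjusted p = 0.45), and the days did not overlap by library totals (162 to 181 CPM on day 14, 242 to 317 CPM on day 3). Adipor1 and Adipoq correlated at -0.68, and at -0.64 when centred on the group means, rank 13060 of 13149 genes. The 11 skeletal muscle fibre genes also ran against Adipoq (-0.67 when centred), and the part of muscle content in the values of Adipor1 was not tested. The other 3 receptor-family genes with a symbol, Mmd, Paqr3 and Paqr4, belong to the same PAQR family. Of 11 listed genes of that family 4 have a symbol here, and edgeR called none of these in any comparison. Mmd, a relative linked to macrophages, correlated with Adipoq at 0.74, and at 0.89 when centred on the group means.

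Downstream of the receptors, 5 of 19 listed genes of adiponectin signalling have a symbol here, and edgeR called none of them in any comparison. They are Prkab1, a subunit of the energy sensor AMPK, its upstream kinase Camkk2, the coactivator Ppargc1a, Acacb and the kinase Mapk14. Their median log2 fold change, adhesive over non-adhesive, was 0.10 on day 3 and 0.07 on day 14, where Adipoq had -0.80 and -3.51. Among the 12 adipocyte genes besides Adipoq, edgeR called none between implants. On day 14, 5 of them had positive and 7 negative log2 fold changes (median -0.09, against -0.04 over all genes). Azgp1, a secreted glycoprotein linked to lipid mobilization, ran the other way. It averaged 1.30 CPM with adhesive and 0.487 CPM with non-adhesive implants (log2 fold change 1.45, SE 0.40, edgeR adjusted p = 0.14). These levels rest on few counts, 11 to 22 per library with adhesive and 5 to 8 with non-adhesive implants. The groups did not overlap, where 4.54% of all genes were higher with adhesive implants without overlap. Azgp1 was called by DESeq2 (adjusted p = 0.044), and by edgeR without non-adhesive replicate 4 (1.75, adjusted p = 0.021), where Irs3, a rodent insulin receptor substrate, was also called (-1.33, edgeR adjusted p = 0.016). Srebf1 was called between days. Srebf1 averaged 216 CPM on day 14 and 36.3 CPM on day 3 with adhesive implants (log2 fold change 2.57, edgeR adjusted p = 0.0055). With non-adhesive implants it averaged 143 CPM on day 14 and 37.7 CPM on day 3 (1.92, edgeR adjusted p = 0.015), and this call was lost without non-adhesive replicate 3 of day 3 (1.78, edgeR adjusted p = 0.053).

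These absences of calls stand beside few calls overall. Between implants edgeR called 0 of 14223 genes on day 3, where 1022 had an unadjusted p under 0.05 and DESeq2 called 69 genes. On day 14 edgeR called 36 of 13557 genes (0.266%) and DESeq2 474 (3.5%). Without non-adhesive replicate 4 of day 14 edgeR called 1151 genes, and the calls of named genes without that library stand beside this number. Between days edgeR called 1186 of 14601 genes (8.12%) with adhesive and 1325 (9.07%) with non-adhesive implants.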

How the data were processed

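RNA from the implant and abdominal wall interface was sequenced from oligo(dT)-selected libraries. Per the submitters' notes and the paper, bcl2fastq 2.17 split the runs, Cutadapt trimmed after a FastQC check, and the authors used STAR for alignment and featureCounts for gene-level counting. The deposited files hold these raw counts for 32552 genes in each of 16 libraries. Whether counting used the strand is not stated. Days follow the sample labels and the paper. The labels give the rats as female, and the paper states both sexes for its rat studies. The series text also names a later day and the extraction protocol another one.

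Gene symbols came from the part of the study's Supplementary Data held here, which names 2007 genes. Genes without a symbol entered every fit. After filterByExpr and TMM scaling, counts were fitted with edgeR 4.0.16 (robust quasi-likelihood) in R 4.3.3, each day alone for the implants and all 16 libraries for the days, with Benjamini-Hochberg adjustment over all genes tested. The SE given with an edgeR fold change is the absolute log2 fold change divided by the square root of the quasi-likelihood F statistic. Log2 CPM used a prior count of 2. Alternatives were DESeq2 1.42.0 (the study's tool), its size factors in edgeR, limma-voom (limma 3.58.1), no filter, no fold limit, a single fit, the replicate number as a block, leaving out each library, and library totals without TMM, which for the fits was added after seeing the data. The fits were tested on simulated data in which 200 genes were changed. No 2 libraries of the same group agreed within sampling noise. Tables and figures used Python 3.11, numpy 2.4.6, pandas 2.3.3 and matplotlib 3.10.9.

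Besides both genes, the genes named were those of the C1q/TNF, PAQR, adiponectin signalling and adipocyte lists that have a symbol and pass the filter, and for each of the 2 genes the 5 named genes with the highest Pearson correlation and a mean of at least 1 CPM. Values of Mb were added as a tissue check. The members and lists were chosen with earlier results of these data known. The limit given for a count of 0 covers counting error only. Author-computed fold changes and p-values in the Supplementary Data were not used.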

Additional observations from a re-analysis of the deposited data

How the results depend on the processing

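Between implants, the number of genes called on day 3 was 0 by edgeR and 69 by DESeq2. On day 14 it was 36, and 474 by DESeq2, 216 in a single fit of all libraries, 6 by library totals and 1 to 1151 when single libraries were left out, the highest without non-adhesive replicate 4. Between days with adhesive implants it was 1186, and 2602 by library totals, 2174 without the fold limit and 462 to 1570 with a library left out. With non-adhesive implants it was 1325, and 2561 without the fold limit and 744 to 1740 with a library left out. For the change of the implant effect with day it was 1 of 14601 (692 at an unadjusted p under 0.05), and 25 by DESeq2 and 0 to 3 with a library left out. Apart from the scalings and libraries named above, the cause of these changes was not tested.

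Adipoq kept its sign between implants on day 14 under every alternative (-3.99 to -2.44). On day 3 it gave -1.73 to 0.63 with a library left out. C1qtnf2 kept its sign between implants on both days (-1.18 to -0.91 on day 3, -1.17 to -0.68 on day 14). Between days it gave 1.06 to 1.5 with adhesive implants (edgeR adjusted p 0.0073 to 0.06) and 1.07 to 1.32 with non-adhesive implants (edgeR adjusted p 0.008 to 0.055) with a library left out, and 0.86 and 0.84 by library totals. DESeq2 gave adjusted p values of 0.00043 and 0.0011. Its difference of the implant effect gave -0.14 to 0.35. Its mean with non-adhesive implants on day 3 was 4.46 CPM, and 5.43 CPM by library totals. Library totals moved the median gene by -0.20 between implants on day 14.

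Same-numbered libraries of 2 groups correlated between -0.36 and 0.48 in their deviations from the group means. Differently numbered libraries were not compared, so these values cannot decide whether the replicate numbers of the titles pair the libraries. With the replicate block edgeR called 0 genes between implants on day 14 and 0 for the difference between days, against 36 and 1, and 796 and 950 genes between days with adhesive and non-adhesive implants. The Adipoq value of day 3 was 0.08 with the block, and C1qtnf2 was still called between days, at 1.28 (edgeR adjusted p = 0.042) with adhesive and 1.17 (edgeR adjusted p = 0.042) with non-adhesive implants.

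C1qtnf2 had 28 to 197 counts per library and Adipoq 17 to 5133. Depth limits the fold change of Retn, which had 0 counts in 1 library. It also limits the values of Azgp1, with 5 to 22 counts on day 14, and of Tshr, with as few as 2 counts.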
